A study of Malus domestica with 6 samples.

Results

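Ribosomal and RNA processing genes were followed in the outer skin (exocarp) of apple fruit, Malus domestica, by RNA sequencing. The members were 26 of the 1261 gene models in the authors' deposited table, taken by annotation alone: 18 had a matching word in the description (such as ribosomal protein, RNA-binding, pentatricopeptide or RNA helicase), 5 carried the RNA recognition motif PF00076 without such a word, and 3 had both. Another 1 gene was dropped because its description named a kinase, a zinc finger or ubiquitin. The fruit came in October 2012 from orchards of a Belgian research centre. Patte de Loup, Reinette Parmentier and St Edmund's Pippin were fully russeted, with a rough, corky skin, and Gala, AF42 and AG94 were fully waxy, with a smooth skin under a wax-covered cuticle. Each variety gave 1 library from exocarp cut free of flesh, so n = 3 varieties per phenotype throughout. Each variety is represented once, and skin type and the rest of what separates these varieties cannot be told apart. The labels state neither the number of fruit per extract nor a treatment.

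Proteins are made by ribosomes, whose large and small subunits consist of ribosomal RNA and ribosomal proteins, with elongation factors driving each step along the messenger. Before that, introns are removed by the spliceosome, in which SR proteins (rich in serine and arginine) help choose the splice sites, and RNA helicases remodel the RNA. Pentatricopeptide repeat (PPR) proteins are a large plant family that edits, cuts and stabilises the transcripts of chloroplasts and mitochondria. Proteins with an RNA recognition motif (RRM) or a KH domain bind RNA in all of these steps.

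The table held only genes chosen by the authors, from the same libraries, for differing between phenotypes, so every count is read against the whole table, and no test is independent evidence. Mapped reads ran from 9.44 M in Gala to 19.1 M in Reinette Parmentier, and the median member had 217 reads in Patte de Loup and 38.5 in Gala. Cork markers rose in 7 of 7 listed genes, with summed levels of 89.8 to 363 RPKM (reads per kilobase of gene, scaled to mapped reads) in russeted and 5.79 to 37.3 RPKM in waxy varieties, and cuticle markers fell in 8 of 8, with 24.1 to 73.6 RPKM against 569 to 1370 RPKM. Genes listed for dividing cells, by the words histone, cyclin or tubulin in the description, rose in 6 of 13. Whether each of them marks dividing cells was not checked. Their summed levels were 488 to 810 RPKM against 192 to 375 RPKM. Most of these sums came from MDP0000238589 (means of 266 and 136 RPKM) and HIS1-3 (217 and 60.3 RPKM), which were not called. Fold changes were above 0 in 12 and below 0 in 1, the cyclin gene CYCA2;3. Its means were 2.81 RPKM in russeted and 12.1 RPKM in waxy varieties (log2 fold change -2.12, edgeR adjusted p = 0.0620). Vascular markers rose in 3 of 6, and their sums overlapped, with 300 to 589 RPKM in russeted and 509 to 1085 RPKM in waxy varieties. Most of these sums came from IRX4 (means of 303 and 781 RPKM), the 1 vascular marker with a fold change below 0, and 5 were above 0. Of 5 chloroplast markers edgeR called 0, while 3 had an unadjusted p under 0.05 (1 higher and 2 lower), DESeq2 scaled to mapped reads called 1 higher and 1 lower, and limma called 1 lower. Their sums were 479 to 3821 RPKM against 3702 to 7719 RPKM, mostly from the ELIP1 model MDP0000840536 (means of 1627 and 5405 RPKM). Fold changes were above 0 in 2 of these 5 markers and below 0 in 3. No listed marker was at 0. The part of these cell types in the results below was not tested, and in whole exocarp fewer cells of a type and less RNA per cell cannot be told apart.

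The question was which genes of this machinery differ between corky and smooth skins. Of the 26 members 4 rose and 2 fell in russeted exocarp, and the other 20 missed the threshold (edgeR's quasi-likelihood test, Benjamini-Hochberg adjusted p under 0.05). The 4 that rose were the RRM genes PHIP1, a nuclear transport factor 2 (NTF2) family gene and an aspartyl protease gene model, and a gene model matched to the ribosomal protein gene RPL3A. An acidic ribosomal protein gene and a PPR gene fell. Over all 1246 tested genes 19.2% rose and 9.31% fell, so that 28.5% were past the threshold against 23.1% of the members, a share near that background. Fold changes were above 0 in 21 members (80.8%) and in 73.8% of all tested genes, and the median log2 fold change was 1.11 for members and 1.19 for all tested genes. With St Edmund's Pippin left out 0 members rose, and with Patte de Loup, AG94 or AF42 left out 2 rose. Over all tested genes 239 rose with all varieties, and 153, 134, 182 and 194 in these fits, in the same order. The number of members that fell was 1 with Patte de Loup or Reinette Parmentier left out. Over all tested genes 116 fell with all varieties, and 71 and 73 in these fits.

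These counts depended on how the libraries were scaled. The fit above scales to all mapped reads. With TMM factors, which take most listed genes to be equal between libraries, the median of all tested genes moved by -0.997 on the log2 scale, to 0.20, and 0 members rose while 5 fell, against 3.53% of all tested genes that rose and 23.8% that fell. DESeq2 scaled to mapped reads called 547 of all 1261 genes higher and 266 lower, and limma called 307 and 169. The calls of these fits in groups of genes are read against these counts. Genes with an unadjusted p under 0.05 were not counted over all tested genes. Values below are relative to mapped reads. Members lay on the side of 0 given by mapped reads in 15 of the 21 cases above 0 and in all 5 below it when TMM factors were used.

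**Figure D1:**
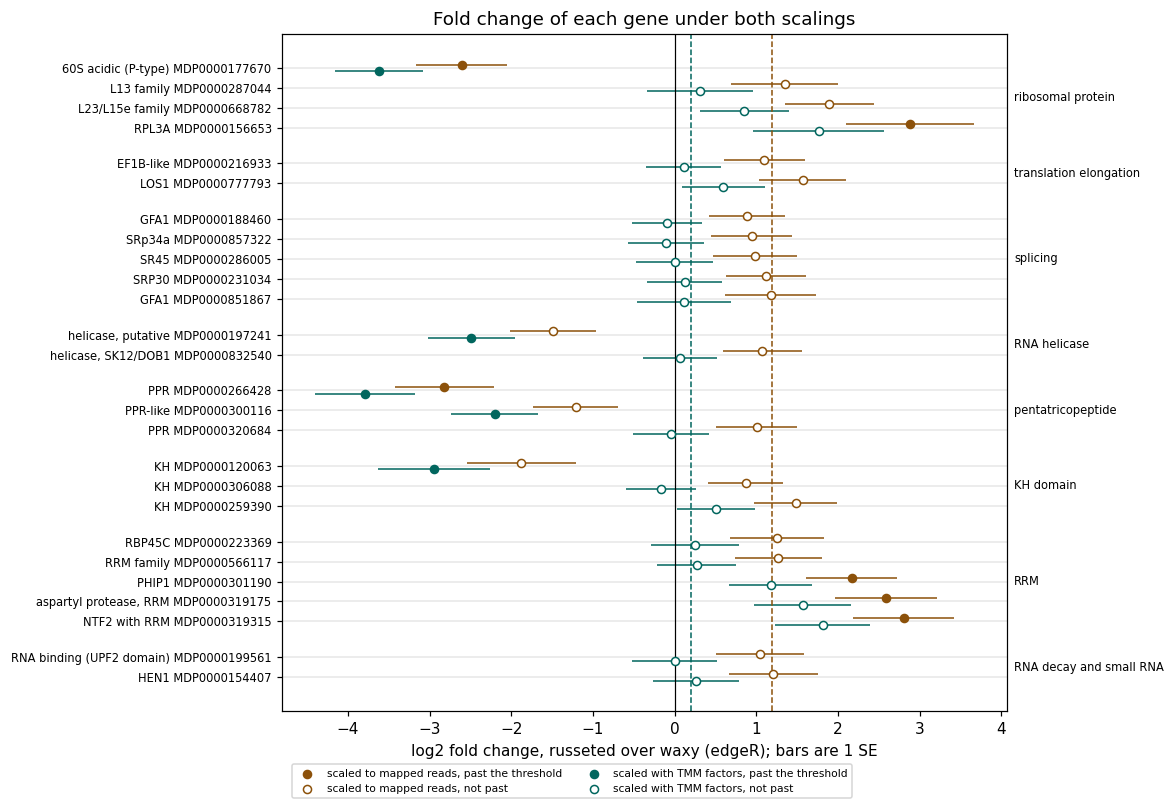
Log2 fold change of russeted over waxy exocarp for the 26 genes, by role, with bars of 1 SE (n = 3 varieties per phenotype). Brown points are scaled to mapped reads and green points with TMM factors, filled points are past the adjusted p of 0.05, and dashed lines mark the medians of all tested genes (1.19 and 0.20). The 2 filled brown points below 0 are also filled in green, and the 4 filled brown points above 0 are not.

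The RPKM values of the 3 russeted varieties lay wholly above those of the 3 waxy varieties in 19 members and wholly below in 5, and overlapped in 2. Of all genes listed, 63.1% lay wholly above and 24.3% wholly below, 87.5% in either direction. In the authors' deposited table, 6 members were higher and 1 was lower in russeted exocarp at a false discovery rate under 0.05, against 25.1% and 10.8% of all genes. Of these 7 members 3 were past the edgeR threshold and 4 were not, and 3 members past the edgeR threshold had a larger deposited rate.

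**Figure D2:**
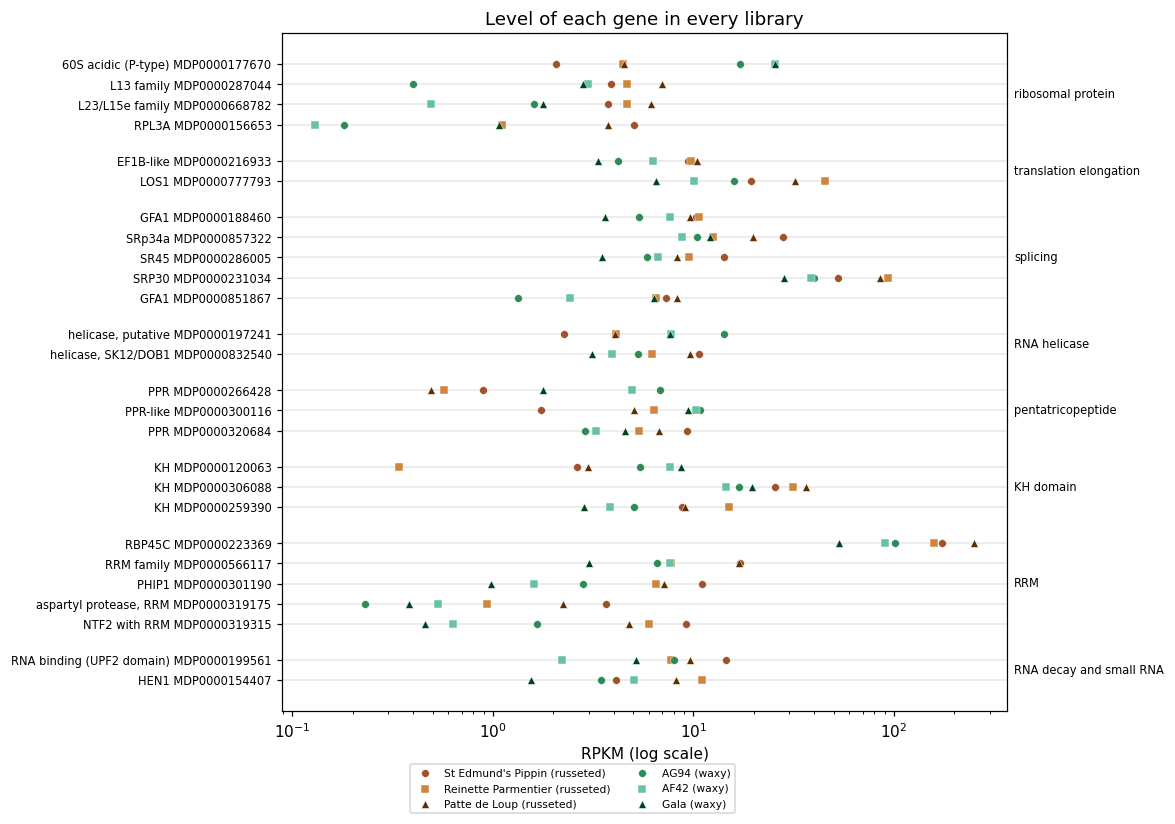
RPKM on a log scale of the 26 genes in each of the 6 libraries, grouped by role. Brown symbols are russeted and green symbols waxy varieties. RBP45C was the most abundant member, from 53.0 RPKM in Gala to 251 RPKM in Patte de Loup, and the lowest value was 0.13 RPKM, of RPL3A in AF42.

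Genes described as ribosomal proteins went in both directions. Of the 4 genes grouped here by their description, 1 rose and 1 fell, and the remaining 2 missed the threshold. The gene that rose and MDP0000287044 list no ribosomal protein domain, as given below. The gene that fell was MDP0000177670, of the 60S acidic ribosomal protein family, whose products form the flexible stalk of the large subunit that recruits elongation factors. Its level was 4.51 RPKM in Patte de Loup, 4.45 in Reinette Parmentier and 2.07 in St Edmund's Pippin, against 25.38 in Gala, 25.60 in AF42 and 16.99 in AG94. The russeted values were all below the waxy ones, with means of 3.68 ± 1.39 RPKM (SD, n = 3) and 22.7 ± 4.91 RPKM, a 6.16-fold difference (log2 fold change -2.60 ± 0.56 SE, adjusted p = 0.0132). Only 22.7% of its reads were unique to it, which leaves 3 to 7 unique reads per russeted and 33 to 39 per waxy variety; the fold change from unique reads was -3.27 ± 0.52 (adjusted p = 0.00482). It was the 1 member called in this direction in all 14 alternative settings.

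The gene model matched to RPL3A, MDP0000156653, rose. In Arabidopsis RPL3A encodes a core protein of the large subunit, near its catalytic centre. The level was 3.74 RPKM in Patte de Loup, 1.11 in Reinette Parmentier and 5.05 in St Edmund's Pippin, against 1.07 in Gala, 0.13 in AF42 and 0.18 in AG94. Reinette Parmentier stood just above Gala, and the remaining russeted varieties stood well above all waxy ones. The log2 fold change was 2.88 ± 0.78 (adjusted p = 0.0418), resting on 7 reads in AG94 and 3 in AF42. The adjusted p was 0.0687 without Patte de Loup, 0.174 without St Edmund's Pippin, 0.109 without AG94 and 0.121 without AF42, which ends the call each time; without Gala the log2 fold change was 4.35. Its 1 listed protein domain is PF05631, known as a domain of membrane transporters and not of ribosomal proteins, so the match by description and the domain do not name the same kind of protein.

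The other 2 ribosomal protein genes were higher in every russeted variety, without passing the threshold. The L23/L15e family gene MDP0000668782, which carries the ribosomal L15e domain, had 6.12, 4.64 and 3.74 RPKM in Patte de Loup, Reinette Parmentier and St Edmund's Pippin, and 1.77, 0.49 and 1.61 RPKM in Gala, AF42 and AG94. Its lowest russeted value was 2.11 times its highest waxy value (log2 fold change 1.89 ± 0.55, adjusted p = 0.0556). From unique reads, 49.1% of the total, the log2 fold change was 1.21 (adjusted p = 0.348), whereas on total reads DESeq2 scaled to mapped reads (adjusted p = 0.00575) and on RPKM limma (0.0403) called the gene higher. AF42 held 4 reads of it. The L13 family gene MDP0000287044 had means of 5.16 ± 1.59 (russeted) and 2.06 ± 1.44 RPKM (waxy; log2 fold change 1.35 ± 0.65, adjusted p = 0.341); AG94, at 0.40 RPKM, was far below AF42 and Gala. Its listed domain, PF10536, is known as the plant mobile domain and not as part of a ribosomal protein.

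In sum over the 4 ribosomal protein genes, the level was 14.8 to 21.3 RPKM in russeted and 19.2 to 31.0 RPKM in waxy varieties, so the groups overlapped. That sum was carried by MDP0000177670 in the waxy varieties.

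Elongation factor genes stood higher in russeted exocarp, again without passing the threshold. LOS1 (MDP0000777793) encodes in Arabidopsis elongation factor eEF2, the GTPase that moves the ribosome along the messenger, though the table describes it as a ribosomal protein S5 and elongation factor G family protein. Its level was 32.1 RPKM in Patte de Loup, 45.2 in Reinette Parmentier and 19.4 in St Edmund's Pippin, against 6.53 in Gala, 10.0 in AF42 and 16.0 in AG94. All russeted values were above all waxy ones, with a 2.97-fold difference of means (log2 fold change 1.57 ± 0.53, adjusted p = 0.109). From unique reads, 38.8% of the total, the log2 fold change was 2.13 (adjusted p = 0.0587). The EF1B-like gene MDP0000216933, of a factor that recharges the elongation factor bringing in transfer RNA, was even within the russeted varieties, at 9.45 to 10.5 RPKM, and ranged from 3.35 to 6.26 RPKM in waxy ones (log2 fold change 1.10 ± 0.49, adjusted p = 0.284). Of these 2 genes edgeR called 0, and both had an unadjusted p under 0.05. For limma the count was 0, and DESeq2 scaled to mapped reads called 1, LOS1 (adjusted p = 0.0114). That DESeq2 fit called 547 of all 1261 genes higher.

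None of the 5 genes grouped as splicing genes passed the threshold. RNA helicases were kept as a group of their own, whether or not they act in splicing. Of these, MDP0000197241 was lower in russeted exocarp, as given below (log2 fold change -1.49, not past the edgeR threshold). DESeq2 scaled to mapped reads called it lower (adjusted p = 0.0268). Its part in splicing was not tested, and the range and counts of splicing genes leave it out. SRP30, SRp34a and SR45 are SR or SR-like proteins that act on splice site choice in Arabidopsis, and the 2 copies of GFA1 match an Arabidopsis GTPase of the spliceosome, although the table describes them by their likeness to elongation factor G. Fold changes lay between 0.88 and 1.17 on the log2 scale in all 5 genes, with a median of 0.98. Russeted values were wholly above waxy values in each, as in 63.1% of all genes listed. The table lists no gene with a deposited log2 fold under 1 in size, and the lowest fitted value above 0 of all tested genes was 0.86, so the selection bounds these values from below. Of the 5 genes edgeR called 0; 1 had an unadjusted p under 0.05, and DESeq2 and limma called 0 as well. With TMM factors 2 of the 5 fold changes were above 0, and the median was -0.00167.

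SRP30 (MDP0000231034) was the most abundant of them. Its level was 85.5 RPKM in Patte de Loup, 93.6 in Reinette Parmentier and 52.5 in St Edmund's Pippin, against 28.4 in Gala, 38.6 in AF42 and 39.9 in AG94, with means of 77.2 ± 21.8 and 35.6 ± 6.28 RPKM (log2 fold change 1.11 ± 0.49, adjusted p = 0.266). In the authors' deposited table its false discovery rate was 0.0169. In this gene St Edmund's Pippin came closest to the waxy range.

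For SRp34a (MDP0000857322) the order of the russeted varieties was the reverse, with 27.96 RPKM in St Edmund's Pippin, 19.75 in Patte de Loup and 12.54 in Reinette Parmentier; the waxy values were 8.77 to 12.15 RPKM, so Reinette Parmentier barely exceeded Gala. SR45 (MDP0000286005), which in Arabidopsis regulates alternative splicing, had 8.26 to 14.2 RPKM in russeted and 3.52 to 6.68 RPKM in waxy varieties (log2 fold change 0.98 ± 0.51, adjusted p = 0.416). The longer GFA1 model, MDP0000188460 (2967 coding bases), had 9.67, 10.7 and 10.3 RPKM in Patte de Loup, Reinette Parmentier and St Edmund's Pippin and 3.64, 7.62 and 5.35 RPKM in Gala, AF42 and AG94. Its russeted varieties were within a factor of 1.11 of each other. The shorter model, MDP0000851867 (315 coding bases), had 6.5 to 8.31 RPKM in russeted varieties, and 6.39, 2.42 and 1.33 RPKM in Gala, AF42 and AG94. The level of the shorter model over that of the longer was 0.61 to 0.86 in russeted varieties, 1.76 in Gala, 0.32 in AF42 and 0.25 in AG94; the shorter model had 7 to 19 reads in the waxy libraries.

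Both RNA helicase genes, which went in opposite directions, were not past the threshold. MDP0000197241, a putative ATP-dependent RNA helicase with the helicase-associated domain PF04408, had 4.08, 4.12 and 2.25 RPKM in Patte de Loup, Reinette Parmentier and St Edmund's Pippin and 7.65, 7.69 and 14.2 RPKM in Gala, AF42 and AG94. Russeted values were all below waxy values (log2 fold change -1.49 ± 0.52, adjusted p = 0.124; -2.49 and 0.0143 with TMM factors). MDP0000832540, of the SK12/DOB1 type whose yeast relatives feed RNA to the exosome for decay, had means of 8.83 ± 2.35 (russeted) and 4.11 ± 1.09 RPKM (waxy; log2 fold change 1.07 ± 0.49, adjusted p = 0.289). Of the 2 genes edgeR called 0, both had an unadjusted p under 0.05, and limma called 0. DESeq2 scaled to mapped reads called MDP0000197241 lower (adjusted p = 0.0268), as it did 266 of all 1261 genes.

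Among the 3 PPR genes, the organelle RNA group, 1 fell and 0 rose, and the remaining 2 missed the threshold. The median for PPR genes was -1.21 on the log2 scale. It was 1.62 for the 4 genes described as ribosomal proteins and 0.98 for the 5 splicing genes, all grouped by role. The differences between these groups were not tested. MDP0000266428 fell. Its level was 0.49 RPKM in Patte de Loup, 0.57 in Reinette Parmentier and 0.89 in St Edmund's Pippin, against 1.77 in Gala, 4.95 in AF42 and 6.85 in AG94. The russeted libraries held 10, 13 and 12 reads in the same order, and the means differed 6.96-fold (log2 fold change -2.82 ± 0.61, adjusted p = 0.0132). Gala was the waxy variety nearest to the russeted ones. Leaving out Reinette Parmentier (adjusted p = 0.0786) or Patte de Loup (0.0627) ended the call.

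The PPR-like gene MDP0000300116 had means of 4.38 ± 2.39 (russeted) and 10.2 ± 0.72 RPKM (waxy; log2 fold change -1.21 ± 0.52, adjusted p = 0.248; -2.20 and 0.0244 with TMM factors). St Edmund's Pippin, at 1.73 RPKM, was far below Reinette Parmentier at 6.38 and Patte de Loup at 5.04 RPKM. The third, MDP0000320684, stood on the other side, with 5.37 to 9.29 RPKM in russeted and 2.88 to 4.54 RPKM in waxy varieties (log2 fold change 1.00 ± 0.49, adjusted p = 0.355); 36.6% of its reads were unique. For edgeR 0 PPR genes were higher at an unadjusted p under 0.05, and DESeq2 and limma called 0 higher. The summed level of the 3 genes was 11.9 to 12.3 RPKM in russeted and 15.7 to 20.5 RPKM in waxy varieties, without overlap. Of all single genes listed, 87.5% did not overlap either. Most of the waxy sum (mean 18.2 RPKM) was MDP0000300116 (10.2 RPKM), which edgeR did not call, and MDP0000320684 went the other way. The chloroplast markers went in both directions, and their overlapping sums came mostly from the ELIP1 model MDP0000840536, as given above. Organelle content was not measured, and its part in the PPR values was not tested.

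An RRM was listed for 8 members, of which 3 rose, 0 fell and 5 missed the threshold, beside the 19.2% of all tested genes that rose. The 8 include the splicing genes SRP30, SRp34a and SR45 described above, which were set apart by role after the values were seen. All 8 were higher in every russeted variety than in any waxy one, as were 63.1% of all genes listed. Their median log2 fold change was 1.26, beside 1.19 for all tested genes. As all 8 were above 0, the like value is 1.48, the median of the 920 tested genes above 0. In edgeR 6 had an unadjusted p under 0.05, and SRp34a (0.0736) and SR45 (0.0738) did not. That count was not made over all tested genes. With TMM factors 0 of the 8 passed, and 6 fold changes were above 0, those of SRp34a and SR45 being below it. The 3 that rose are among the 5 RRM genes outside splicing, in which St Edmund's Pippin was highest in 4 and Reinette Parmentier lowest in 4.

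PHIP1 (MDP0000301190) encodes in Arabidopsis a protein that binds phragmoplastin, a dynamin of the growing cell plate; the apple model lists an RRM and a CCHC-type zinc knuckle domain. Its level was 7.10 RPKM in Patte de Loup, 6.49 in Reinette Parmentier and 11.0 in St Edmund's Pippin, against 0.98 in Gala, 1.61 in AF42 and 2.82 in AG94. Every russeted value was at least 2.30 times the highest waxy value, and the means differed 4.55-fold (log2 fold change 2.17 ± 0.55, adjusted p = 0.0301). Leaving out any variety but AG94 ended the call, with an adjusted p of 0.0548 (Patte de Loup), 0.0614 (Reinette Parmentier), 0.105 (St Edmund's Pippin), 0.0770 (AF42) or 0.112 (Gala), as did unique reads, 55.8% of the total (0.0561). Of the 13 genes listed by word for dividing cells 6 rose, while the cyclin gene among them with a fold change below 0 was not called. Whether each of the 13 marks dividing cells was not checked. Their part in the PHIP1 value was not tested.

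The NTF2 family gene with an RRM, MDP0000319315, combines the same kinds of domain as the human stress-granule protein G3BP. Its level was 4.76 RPKM in Patte de Loup, 6.02 in Reinette Parmentier and 9.17 in St Edmund's Pippin, against 0.46 in Gala, 0.63 in AF42 and 1.66 in AG94. Means of 6.65 ± 2.27 and 0.917 ± 0.649 RPKM differed 7.25-fold (log2 fold change 2.80 ± 0.62, adjusted p = 0.0145), on 6, 9 and 38 reads in Gala, AF42 and AG94. From unique reads, 46.8% of the total, the log2 fold change was 2.10 and the call was lost (adjusted p = 0.0573), as it was without St Edmund's Pippin (0.0564).

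The third RRM gene that rose, MDP0000319175, is described as an aspartyl protease. Its 5565 coding bases list the aspartyl protease domain together with an RRM, the MLLE domain of poly(A)-binding proteins and both Cactin domains, which belong to unrelated protein families. The structure of the model was not checked here. Its level was 2.23 RPKM in Patte de Loup, 0.93 in Reinette Parmentier and 3.67 in St Edmund's Pippin, against 0.38 in Gala, 0.53 in AF42 and 0.23 in AG94. The russeted values differed 3.95-fold among themselves, with Reinette Parmentier nearest to the waxy varieties (log2 fold change 2.59 ± 0.63, adjusted p = 0.0222). Leaving out AG94 (adjusted p = 0.0726) or St Edmund's Pippin (0.105) ended the call, as did limma (0.0721) and the replicate block (0.0546).

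RBP45C (MDP0000223369), of a plant family of nuclear proteins that bind U-rich RNA, was the most abundant member, at 251 RPKM in Patte de Loup, 158 in Reinette Parmentier and 173 in St Edmund's Pippin, against 53.0 in Gala, 90.0 in AF42 and 102 in AG94. The lowest russeted value was 1.56 times the highest waxy value (log2 fold change 1.25 ± 0.58, adjusted p = 0.298). In the authors' deposited table its false discovery rate was 0.00635. Of its reads 47.5% were unique, and the log2 fold change from these was 1.14. The RRM family gene MDP0000566117, which also lists a VQ motif, had 16.9, 7.75 and 17 RPKM in Patte de Loup, Reinette Parmentier and St Edmund's Pippin and 3.01 to 7.64 RPKM in waxy varieties, so that Reinette Parmentier and AF42 nearly met (log2 fold change 1.27 ± 0.53, adjusted p = 0.228).

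The 3 KH domain genes were not past the threshold and pointed both ways. MDP0000306088 had 25.5 to 36.5 RPKM in russeted and 14.6 to 19.6 RPKM in waxy varieties (log2 fold change 0.87 ± 0.46, adjusted p = 0.419), and in the authors' deposited table its false discovery rate was 0.00315. MDP0000259390 had means of 11.0 ± 3.58 (russeted) and 3.91 ± 1.11 RPKM (waxy; log2 fold change 1.48 ± 0.51, adjusted p = 0.114). MDP0000120063 was lower, with 2.98 RPKM in Patte de Loup, 0.34 in Reinette Parmentier and 2.64 in St Edmund's Pippin, against 8.71 in Gala, 7.64 in AF42 and 5.42 in AG94. Reinette Parmentier held 6 reads of this gene and stood 8.76-fold below Patte de Loup, the widest span among the russeted varieties in any member (log2 fold change -1.87 ± 0.66, adjusted p = 0.126; -2.94 and 0.0217 with TMM factors). Of the 3 genes edgeR called 0, 2 had an unadjusted p under 0.05, limma called 1 and DESeq2 scaled to mapped reads called 2. Over all 1261 genes limma called 307 higher and 169 lower, and this DESeq2 fit 547 and 266.

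Genes of RNA decay and small RNAs were the 2 members whose phenotypes overlapped. HEN1 (MDP0000154407), the methyltransferase that protects the ends of plant microRNAs, had 8.15, 11.0 and 4.12 RPKM in Patte de Loup, Reinette Parmentier and St Edmund's Pippin, and 1.54, 5.08 and 3.45 RPKM in Gala, AF42 and AG94; AF42 exceeded St Edmund's Pippin (log2 fold change 1.21 ± 0.55, adjusted p = 0.288). MDP0000199561, described only as RNA binding, lists the domains of UPF2, a factor of nonsense-mediated messenger decay. It had 7.69 to 14.5 RPKM in russeted and 2.20 to 7.98 RPKM in waxy varieties, AG94 exceeding Reinette Parmentier (log2 fold change 1.04 ± 0.53, adjusted p = 0.391). Only 9.35% of its reads were unique, the lowest share of any member. Of these 2 genes edgeR called 0, 1 had an unadjusted p under 0.05, and DESeq2 and limma called 0.

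**Figure D3:**
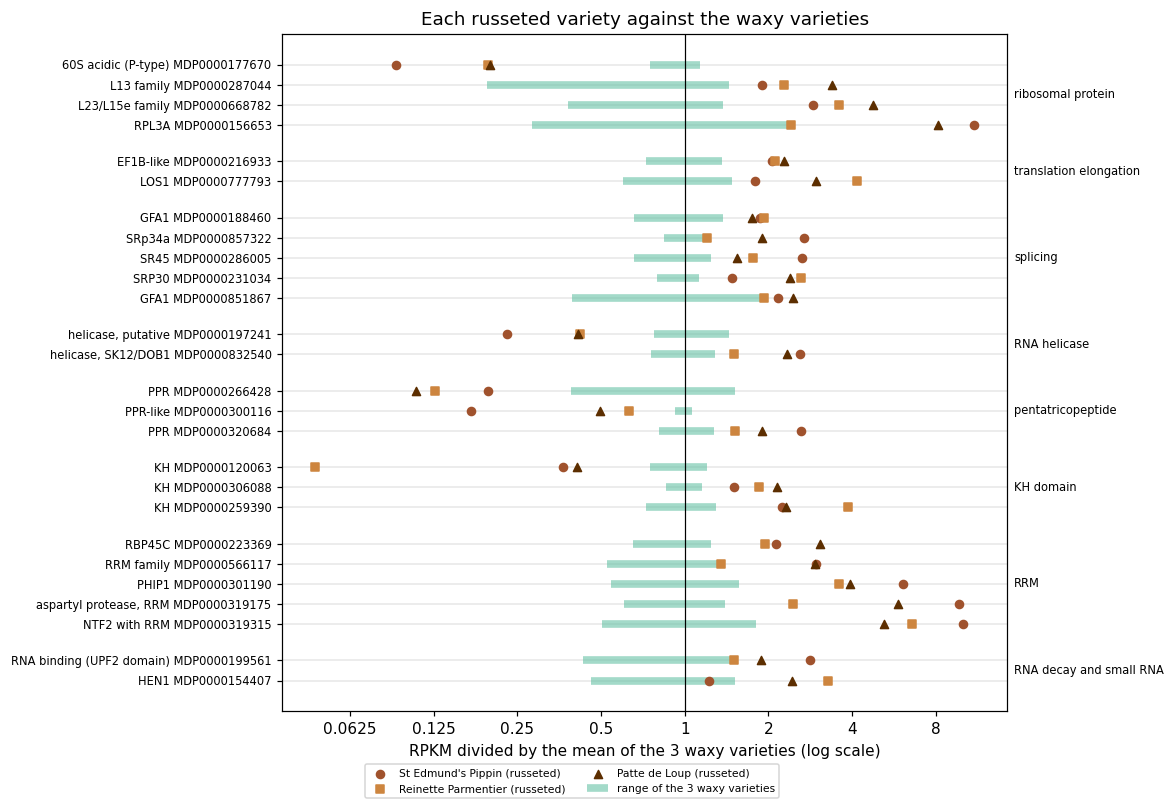
RPKM of each russeted variety divided by the mean of the 3 waxy varieties, on a log scale, with the range of the waxy varieties as a green bar. In 19 genes all 3 brown symbols are right of the bar and in 5 all are left of it. HEN1 and the gene with UPF2 domains have a symbol inside the bar.

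The russeted varieties shared the direction of most members but not their order. Of the 21 members above 0, St Edmund's Pippin was highest in 10 (47.6%), Patte de Loup in 6 (28.6%) and Reinette Parmentier in 5 (23.8%), against 38.0%, 42.2% and 19.8% of all table genes above 0. Patte de Loup was highest in 7 of 7 cork markers and St Edmund's Pippin lowest in 7 of 7, whereas St Edmund's Pippin was highest in 6 of the 8 members with an RRM. St Edmund's Pippin was lowest in 3 of the 4 genes described as ribosomal proteins and in both elongation factor genes, and in 497 of all 1261 genes. The 3 include MDP0000177670, which fell, so that its lowest value lies farthest from the waxy varieties. The median member had an SD of log2(RPKM + 1) of 0.39 within russeted and 0.45 within waxy varieties, beside 0.48 and 0.45 for all table genes. Among the waxy varieties Gala was lowest in 15 of the 26 members, and in 564 of all 1261 genes.

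All reads were unique in 1 member, and 25 shared some with other genes. Under 50% of the reads were unique in 8 members, and in 254 of all 1261 genes. Among these 8 members 1 rose and 1 fell, and among the 18 others 3 rose and 1 fell. With unique reads only, 2 members rose and 2 fell, since PHIP1 (55.8% unique) and the NTF2 family gene (46.8%) lost their calls.

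**Figure D4:**
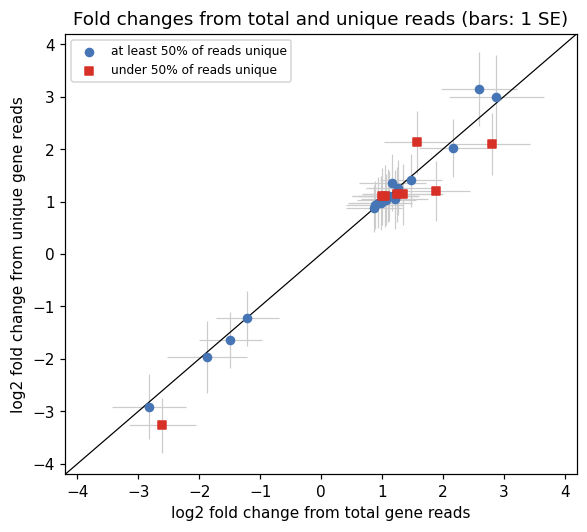
Log2 fold change of each of the 26 genes from unique gene reads (vertical) against that from total gene reads (horizontal), with bars of 1 SE and the line of equality. Red squares are the 8 genes with under 50% unique reads. Points lie near the line, and each gene keeps its sign; among the squares, LOS1 moves from 1.57 to 2.13 and the L23/L15e family gene from 1.89 to 1.21.

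Another 9 genes of the table, which are not members, had another RNA word in the description, such as tRNA, rRNA, ribonuclease or Argonaute. They include 2 genes of proteins that bind an S-ribonuclease and an arginine-tRNA protein transferase, which modifies proteins. Of these 9 genes edgeR called 0, and 7 had an unadjusted p under 0.05 (5 higher and 2 lower). DESeq2 scaled to mapped reads called the same number in each direction and limma called 1. Over all 1261 genes this DESeq2 fit called 547 higher and 266 lower, and limma 307 and 169. Fold changes were above 0 in 7 of the 9, with a median of 1.29 on the log2 scale. Both gene models of the threonyl-transfer RNA synthetase EMB2761, which charges transfer RNA with threonine, were higher in every russeted variety, at 4.82 to 9.51 RPKM against 1.84 to 2.64 RPKM in MDP0000181185 (log2 fold change 1.78 ± 0.51, adjusted p = 0.0542) and 4.43 to 6.64 RPKM against 1.39 to 3.37 RPKM in MDP0000802980 (1.31 ± 0.54, adjusted p = 0.215). AGO5 (MDP0000242314), an Argonaute protein that carries small RNAs, had means of 6.62 ± 3.31 (russeted) and 2.26 ± 0.378 RPKM (waxy; log2 fold change 1.55 ± 0.54, adjusted p = 0.117). The rRNA processing gene MDP0000191626 had 4.36 to 8.89 RPKM in russeted and 2.10 to 4.0 RPKM in waxy varieties. A peptidyl-tRNA hydrolase gene, MDP0000250525, was lower, at 6.43 to 12.5 RPKM against 17.4 to 44.1 RPKM (log2 fold change -1.60 ± 0.53, adjusted p = 0.104), with 12.0% unique reads.

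Over all 26 members the summed level was 569 RPKM in Patte de Loup, 470 in Reinette Parmentier and 450 in St Edmund's Pippin, against 217 in Gala, 273 in AF42 and 294 in AG94. Without RBP45C the sums were 277 to 319 RPKM in russeted and 164 to 192 RPKM in waxy varieties. The russeted sums were thus above the waxy ones with and without the most abundant member, by 1.90-fold and 1.68-fold in the means. The listed genes were chosen for differing in these libraries, and 21 of the 26 members lay above 0. The direction of the sums is therefore no independent evidence. In the russeted varieties the median listed gene stood at 2.00 to 2.35 times its waxy mean. The median member stood at 1.93 to 2.33 times. These levels are relative to mapped reads, and with TMM factors the median log2 fold change of members was 0.11 instead of 1.11.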

How the data were processed

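RNA came from 250 mg of exocarp peeled in slices 5 mm wide, extracts below an integrity number of 8 were left out, and poly(A) libraries that do not mark strand were made from 3 µg of RNA and 15 PCR cycles (per the labels' protocols). Total and unique gene read counts and RPKM values were deposited with their means; per the file headers they come from CLC Genomics Workbench 6.5. Which aligner settings and genome build the authors used was not given in the sources used here. A deposited signed fold, a score, its log2, and the p-value and false discovery rate are those of Baggerley's test per the file headers. The deposited table held genes with a rate up to 0.2 and an absolute log2 fold of at least 1. Without strand, overlapping antisense reads cannot be told apart.

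Columns were tied to samples by variety name. Mapped reads were recovered from reads, length and RPKM (median of the genes with 200 reads or more). Total counts were tested with edgeR 4.0.16 under R 4.3.3 (two-sided quasi-likelihood test), with mapped reads as library sizes and its low-count filter (1246 genes kept, all 26 members among them). P values were adjusted over 6449 genes, the number that the deposited p and rate imply (to within 0.238%); unlisted genes were taken to have larger p. The SE is the fold divided by the root of F. Alternatives used TMM, DESeq2 1.42.0, limma 3.58.1 on log2(RPKM + 1), no filter, unique reads, adjustment over the tested genes, a replicate block and leaving out each variety. P values measure the spread between varieties.

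The members and lists were chosen with earlier results of these data known. Named were all members past the threshold, the most abundant and most changed of each word class, and every member of small classes; the rest of the 26 were named after their values were seen. The words set for splicing caught SRP30 alone and the ribosomal words caught 8 genes. Members are therefore ordered by the known role of the Arabidopsis match, with RNA helicases kept apart whether or not they act in splicing. The RefSeq gene table matched 0 of the 1261 identifiers, so no positions or sequences are printed.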

Additional observations from a re-analysis of the deposited data

How the results depend on the processing

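The number of members that rose was 4 and that fell 2. TMM factors gave 0 and 5, DESeq2 with its own size factors 1 and 5, and DESeq2 with mapped reads 7 and 4. Unique reads gave 2 and 2, and adjustment over the tested genes alone 8 and 5. Over all tested genes the counts were 239 and 116 of 1246 in the main fit and 44 and 296 with TMM factors. They were 111 and 322 of 1261 in DESeq2 with its own size factors and 547 and 266 with mapped reads. With unique reads they were 187 and 104 of 1217, and with adjustment over the tested genes alone 597 and 290 of 1246. Leaving out 1 variety gave 0 to 3 risen and 1 to 2 fallen members. Over all tested genes it gave 134 to 194 risen and 67 to 105 fallen genes. Of the 8 genes with ribosomal protein in the description 1 rose and 1 fell; the number risen was 0 with TMM factors or DESeq2's own size factors, 3 with DESeq2 on mapped reads or adjustment over the tested genes, 2 with limma, and 0 to 1 without 1 variety. The number of fallen PPR genes, 1, was 2 with TMM factors, DESeq2's own size factors or adjustment over the tested genes, and 0 to 1 without 1 variety. Grouping by known role, chosen after seeing the data, left ribosomal proteins at 1 risen and 1 fallen and splicing genes at 0 and 0.

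Signs turned in 6 members, none of them past the threshold, under TMM factors and DESeq2's own size factors: MDP0000188460 (-0.093 and -0.114), MDP0000199561 (-0.00143 and -0.0336), MDP0000286005 (-0.00167 and -0.0242), MDP0000306088 (-0.166 and -0.196), MDP0000320684 (-0.0439 and -0.0696) and MDP0000857322 (-0.107 and -0.136). Both scalings moved the median of all genes, by -0.997 and -1.02. In the other 12 settings no member changed sign.

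Same-numbered libraries did not deviate together (r = -0.088, -0.0206 and -0.0946), so the numbers only name them; a fit with the replicate block gave 3 risen and 2 fallen members. Read numbers per member went down to 3 in a waxy library, which limits RPL3A, the NTF2 family gene and the L23/L15e family gene among others. Intervals were not computed, and reads carried no molecular identifiers.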
